A study of Mus musculus with 35 samples.

Results

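The genes described here encode the MHC class II antigen presentation machinery of the mouse: the classical chains H2-Aa, H2-Ab1 and H2-Eb1, the invariant chain Cd74, the peptide editor chains H2-DMa, H2-DMb1 and H2-DMb2, and the transactivator Ciita. They were chosen by name, as 8 of the 49671 rows of the deposited gene count table, by no threshold on their values but with earlier results of these data known. All 8 were among the 17166 genes that passed the filter on low counts, and their counts ranged from 119 for Ciita to 40824 for Cd74 in single libraries.

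MHC class II molecules are pairs of an alpha and a beta chain that display peptides from endocytosed proteins to CD4+ T cells. The invariant chain holds the newly made pair in the endoplasmic reticulum and takes it to endosomes, where cathepsins degrade it and H2-DM exchanges its last fragment for antigenic peptides. In mouse bone marrow cultures these genes are expressed mainly by dendritic cells, macrophages and B cells, and granulocyte-macrophage colony-stimulating factor (GM-CSF) favours the growth of the first and second of these. Ciita is the master regulator of the family: it does not bind DNA itself but joins a complex of RFX, CREB and NF-Y proteins on conserved promoter boxes.

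The samples were 35 RNA-seq libraries, 5 in each of 7 groups, from lineage-negative hematopoietic stem and progenitor cells (HSPC) of C57Bl/6 bone marrow. The cells were transduced with lentivirus, cultured in medium with several cytokines and sorted by fluorescence. They were then grown for 1 week in methylcellulose with myeloid and erythroid growth factors, to which 10 ng/mL GM-CSF was added. NHA9 is the leukemia fusion of the phenylalanine-glycine (FG) rich portion of the nucleoporin NUP98 with the homeodomain of HOXA9, and G marks a monomeric EGFP tag. The study asked how the FG motifs, which drive the fusion into nuclear condensates, and the DNA-binding homeodomain affect gene expression.

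The control group received the empty vector, which carries mCherry without a fusion, and every other group received a tagged construct: full-length G-NHA9, G-NHA9-8FA with 8 phenylalanines changed to alanine, G-NHA9-21FGAA with 21 FG motifs changed to alanine pairs, the truncated G-NHA9Midi, which keeps a C-terminal part of the NUP98 portion, G-NHA9Midi-21FGAA with the same FG changes in the truncated form, and G-NHA9-ΔDNA, whose homeodomain was mutated to weaken its contact with DNA. The labels spell the fusion NHX9 and the last group DDNA. All libraries were labelled 8 weeks except replicate 4 of the empty vector at 9 weeks, replicate 5 of the empty vector at 10 weeks and replicate 1 of G-NHA9 at 11 weeks. These libraries are consecutive in the sample order, and whether the ages are true or an entry error is not known. They are called the older libraries below by their labels only. Donor mice were male and female, and whether marrow was pooled was not specified. The sorted cells are a bulk population whose progeny were collected after culture, so that fewer cells of a type and less RNA per cell cannot be told apart. Total counts were 31559914 to 75810659 per library, and 3 counts corresponded to 0.0396 to 0.0951 counts per 1000000 (CPM) across libraries.

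Of the 8 genes, 6 lie on chromosome 17 within the major histocompatibility complex. Gene IDs are printed with the versions of the deposited counts, which differ from those of the gene models used for positions. In the mm10 assembly with the GENCODE release M21 models, H2-Aa (ENSMUSG00000036594.14) spans chr17:34282744-34287823 on the minus strand, H2-Ab1 (ENSMUSG00000073421.5) spans chr17:34257689-34269419 on the plus strand and H2-Eb1 (ENSMUSG00000060586.10) spans chr17:34305867-34316674 on the plus strand. H2-DMa (ENSMUSG00000037649.9) spans chr17:34119541-34139101, H2-DMb2 (ENSMUSG00000037548.14) spans chr17:34143307-34151555 and H2-DMb1 (ENSMUSG00000079547.3) spans chr17:34153072-34160230, all on the plus strand. Ciita (ENSMUSG00000022504.9) lies on the plus strand at chr16:10480059-10528418.

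The promoters are shown because the class II genes share the boxes on which the RFX, CREB and NF-Y complex assembles. RefSeq windows of GRCm38.p6, which run from 250 bases before to 50 bases after each start, were given for 5 of the 8 genes, and H2-Ab1, Cd74 and Ciita had none. RefSeq starts can differ from those of GENCODE, so the printed H2-DMb1 and H2-DMb2 promoters lie inside the gene spans given above. The letters searched on both strands were AACNGATG from the X box, TGACGTCA, a palindrome that a CREB protein binds, and TGATTGG from the Y box with its inverted CCAAT. These letters were chosen with the sequences in view. In the lines that follow, given 5′ to 3′ on the strand of the gene, capitals mark the matches, and the coordinates are of GRCm38.p6.
H2-Aa promoter, chr17:34287857-34287907, minus strand: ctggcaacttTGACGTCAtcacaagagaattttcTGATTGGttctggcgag
H2-Eb1 promoter, chr17:34305768-34305822, plus strand: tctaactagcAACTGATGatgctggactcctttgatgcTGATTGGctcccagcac
H2-DMb1 promoter, chr17:34153089-34153144, plus strand: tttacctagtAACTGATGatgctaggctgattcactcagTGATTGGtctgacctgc
H2-DMb2 promoter, chr17:34145118-34145173, plus strand: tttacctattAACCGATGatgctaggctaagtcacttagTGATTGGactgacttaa
H2-Ob promoter, chr17:34238796-34238862, plus strand: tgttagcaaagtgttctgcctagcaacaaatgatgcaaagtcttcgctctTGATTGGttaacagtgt

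H2-Aa, H2-Eb1, H2-DMb1 and H2-DMb2 carried an upstream box followed by TGATTGG on the same strand within 40 bases. That arrangement occurred in 18 of 32851 promoter windows (0.0548%), whereas AACNGATG alone was in 2.32%, TGACGTCA in 1.79% and TGATTGG in 7.82%. The 18 include the windows of these genes. As the letters were chosen with these sequences in view, the low share is no test of shared boxes. Neither of the 2 windows of H2-DMa held any of these letters. H2-Ob, the beta chain of H2-DO and not one of the 8 genes, is printed because its counts moved the opposite way in some groups, as described further on. In its window, as in that of H2-Oa, TGATTGG was the only match, and since the upstream letters were fitted to the other sequences nothing is read from their absence.

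Per kilobase of exon, the order of the genes was the same in every group: Cd74, H2-Ab1, H2-Aa, H2-Eb1, H2-DMb1, H2-DMa, H2-DMb2 and Ciita. In the empty vector group Cd74 stood at 355 CPM per kb, against 93.6 for H2-Ab1, 88.6 for H2-Aa, 78.9 for H2-Eb1, 46.2 for H2-DMb1, 27.1 for H2-DMa, 9.47 for H2-DMb2 and 1.23 CPM per kb for Ciita. The invariant chain was thus the most abundant of these transcripts and the regulator the least. The 8 genes together held 0.141% of all counts in the empty vector group and 0.0998% in G-NHA9-21FGAA.

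Between groups the summed level of the 8 genes was highest in the empty vector group, at 1530 ± 137 CPM (SD, n = 5, range 1340 to 1710). It was 1380 ± 204 CPM in G-NHA9Midi-21FGAA, 1230 ± 195 CPM in G-NHA9, 1160 ± 114 CPM in G-NHA9-ΔDNA and 1070 ± 154 CPM in G-NHA9-8FA. The lowest sums were in G-NHA9Midi (1010 ± 167 CPM) and G-NHA9-21FGAA (955 ± 227 CPM). For each gene, every group overlapped the next one in the order of its means.

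**Figure D1:**
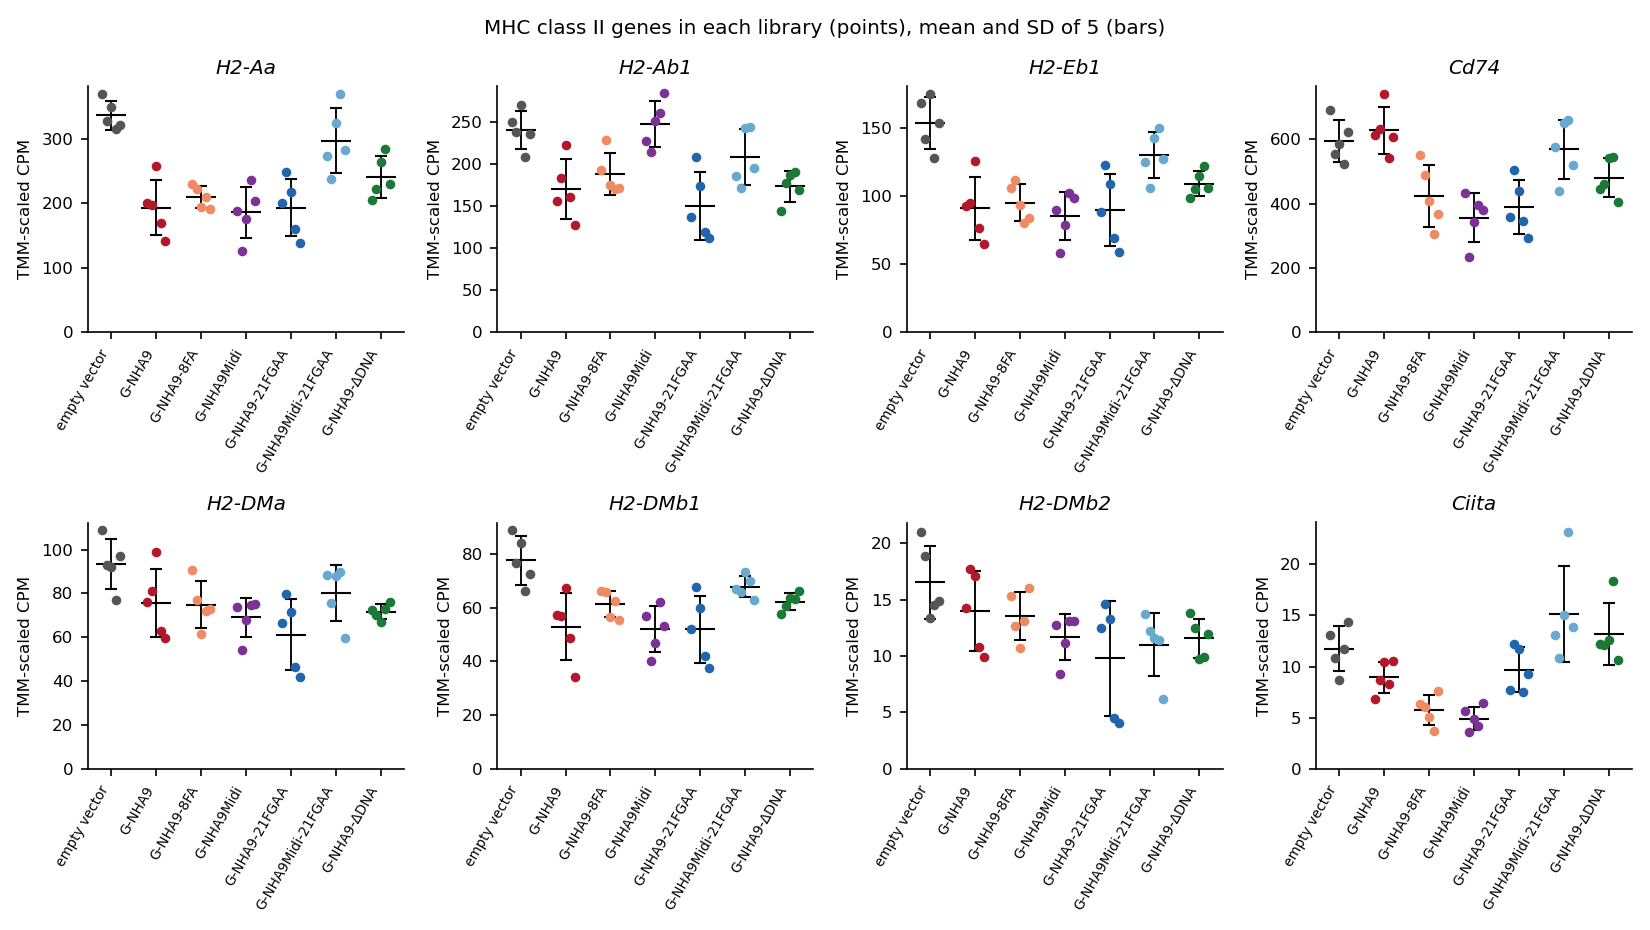
Level of each of the 8 genes in the 35 libraries, in CPM scaled by the trimmed mean of M values (TMM), with 1 panel per gene, 1 point per library and bars for the mean and SD of 5 libraries. The empty vector libraries of H2-Aa, between 315 and 370 CPM, sit above all libraries of every group except G-NHA9Midi-21FGAA, whereas Ciita ranges from 3.57 CPM in G-NHA9Midi to 23.1 CPM in G-NHA9Midi-21FGAA.

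Compared with the empty vector, the class II genes that passed the test were lower in 5 of the 6 construct groups, and none was higher in any of them. A gene was called when its Benjamini-Hochberg adjusted p over all genes tested, from edgeR's quasi-likelihood test, was under 0.05. The number called lower was 4 of 8 in G-NHA9, where 15.2% of all tested genes were called lower and 16.9% higher. It was 4 of 8 in G-NHA9-8FA (background 13.2% lower, 13.4% higher), 6 of 8 in G-NHA9Midi (background 20% lower, 20.5% higher) and 7 of 8 in G-NHA9-21FGAA (background 12.5% lower, 14.7% higher). In G-NHA9-ΔDNA 3 of 8 were lower (background 7.35% lower, 9.85% higher).

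In G-NHA9Midi-21FGAA none of the 8 was called (background 7.32% lower, 9.59% higher), with 1 of 8, H2-DMb2, at an unadjusted p under 0.05 in edgeR and none called by DESeq2. The median log2 fold change of the 8 genes against the empty vector was -0.44 in G-NHA9, -0.42 in G-NHA9-8FA, -0.66 in G-NHA9Midi, -0.65 in G-NHA9-21FGAA, -0.43 in G-NHA9-ΔDNA and -0.20 in G-NHA9Midi-21FGAA. The median of all tested genes lay between -0.02 and 0.03 in these comparisons, which share their control libraries. The 3 calls in G-NHA9-ΔDNA had adjusted p of 0.024 to 0.043 in edgeR, and none of them held when replicate 3 of the empty vector was left out (adjusted p 0.059 to 0.1) or when replicate 1 of G-NHA9-ΔDNA was left out (0.072 to 0.094).

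**Figure D2:**
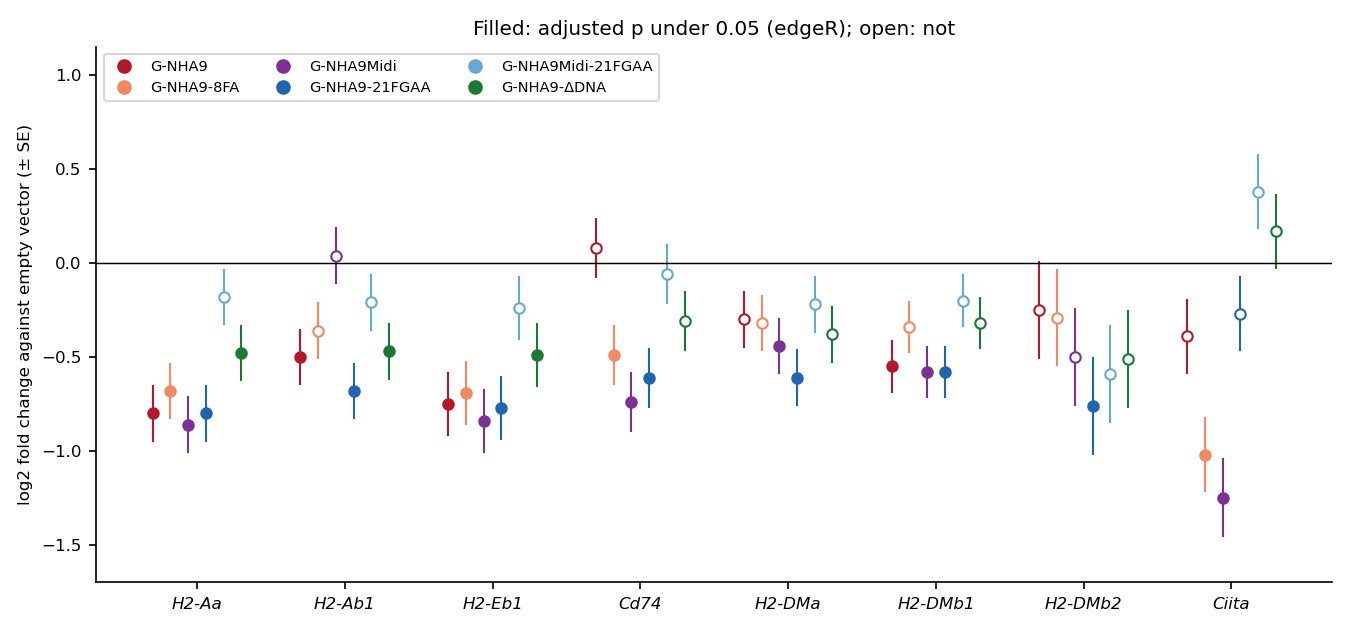
Log2 fold change of each gene in each construct group against the empty vector (y axis), with the standard error from edgeR as bars; filled points have an adjusted p under 0.05. H2-Aa and H2-Eb1 are filled and lower in 5 groups, Cd74 stands at 0.08 in G-NHA9 and H2-Ab1 at 0.04 in G-NHA9Midi, and Ciita reaches -1.25 in G-NHA9Midi.

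H2-Aa, the alpha chain of I-A, fell in 5 of the 6 construct groups. In the empty vector libraries, from replicate 1 to 5, it stood at 370, 328, 350, 315 and 321 CPM. It was 201, 198, 258, 169 and 142 CPM in G-NHA9 and 230, 223, 194, 210 and 192 CPM in G-NHA9-8FA. All 10 of those libraries were below the lowest control library.

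H2-Aa was 188, 127, 176, 236 and 204 CPM in G-NHA9Midi, and 200, 249, 217, 161 and 138 CPM in G-NHA9-21FGAA. It was 206, 222, 264, 285 and 230 CPM in G-NHA9-ΔDNA. These 3 groups also lay wholly below the controls. In G-NHA9Midi-21FGAA it was 273, 238, 325, 369 and 283 CPM, so that 2 libraries reached into the control range and 3 did not.

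Against the empty vector the log2 fold change of H2-Aa was -0.80 ± 0.15 (SE) in G-NHA9, at which the level decreased by 42.5% (adjusted p = 0.00014 by edgeR). It was -0.68 in G-NHA9-8FA (adjusted p = 0.0011), -0.86 in G-NHA9Midi (3.5e-05), -0.80 in G-NHA9-21FGAA (0.00028) and -0.48 in G-NHA9-ΔDNA (0.029), each with an SE of 0.15. In G-NHA9Midi-21FGAA the log2 fold change was -0.18 with a 95% interval of -0.49 to 0.14 (adjusted p = 0.47).

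H2-Eb1, the beta chain of I-E, followed H2-Aa closely. C57Bl/6 mice carry a defective I-E alpha gene and make no I-E protein, so this beta chain is measured here as RNA alone. Its level was 153 ± 19.2 CPM in the empty vector group (range 128 to 175) and 90.9 ± 23.1 CPM in G-NHA9 (64.6 to 126). It was 95.2 ± 13.9 CPM in G-NHA9-8FA, 85.6 ± 17.5 CPM in G-NHA9Midi and 89.8 ± 26.7 CPM in G-NHA9-21FGAA. In all 4 groups every library was below the lowest control.

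The log2 fold changes of H2-Eb1 were -0.75, -0.69, -0.84 and -0.77 in those 4 groups, with an SE of 0.17 and adjusted p of 0.00083, 0.0026, 0.00016 and 0.001 by edgeR. In G-NHA9-ΔDNA it was 109 ± 9.16 CPM (log2 fold change -0.49, adjusted p = 0.043), and in G-NHA9Midi-21FGAA 130 ± 17.1 CPM (-0.24, adjusted p = 0.36). The log2 ratio of H2-Eb1 to H2-Aa differed from that of the empty vector group by -0.05 to 0.04 across the 6 construct groups.

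H2-Ab1, the beta chain that pairs with H2-Aa, fell in 3 groups but not in G-NHA9Midi. In the empty vector libraries it stood at 250, 238, 270, 208 and 236 CPM, and in the G-NHA9 libraries at 156, 184, 223, 161 and 127 CPM. In G-NHA9Midi it was 227, 214, 251, 261 and 284 CPM. The G-NHA9Midi libraries thus spread over the control range, with 1 above it, while 4 of 5 G-NHA9 libraries were below it.

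H2-Ab1 was 193, 229, 175, 170 and 171 CPM in G-NHA9-8FA and 137, 208, 174, 119 and 112 CPM in G-NHA9-21FGAA. It was 186, 172, 243, 244 and 195 CPM in G-NHA9Midi-21FGAA and 144, 177, 187, 190 and 169 CPM in G-NHA9-ΔDNA. Only the G-NHA9-21FGAA and G-NHA9-ΔDNA groups had all 5 libraries under the lowest control library, at 208 CPM to the printed precision.

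The log2 fold change of H2-Ab1 against the empty vector was -0.50 ± 0.15 in G-NHA9 (adjusted p = 0.0085 by edgeR, 0.053 when library totals replaced the TMM scaling), -0.68 ± 0.15 in G-NHA9-21FGAA (adjusted p = 8e-04) and -0.47 ± 0.15 in G-NHA9-ΔDNA (adjusted p = 0.024). In G-NHA9Midi it was 0.04 with a 95% interval of -0.25 to 0.34 (adjusted p = 0.85), an interval that does not reach the change of H2-Aa in the same libraries. In G-NHA9-8FA it was -0.36 (adjusted p = 0.066), and in G-NHA9Midi-21FGAA -0.21 (adjusted p = 0.35).

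The partner chains of I-A therefore did not keep one ratio. The log2 ratio of H2-Ab1 to H2-Aa counts was -0.49 ± 0.09 in the empty vector group (SD, n = 5, range -0.60 to -0.38) and 0.43 ± 0.23 in G-NHA9Midi (0.15 to 0.76). It was -0.18 ± 0.12 in G-NHA9 and -0.17 ± 0.13 in G-NHA9-8FA. In each of these 3 groups all 5 libraries exceeded all 5 controls.

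The differences from the empty vector were 0.92 in G-NHA9Midi, 0.31 in G-NHA9 and 0.32 in G-NHA9-8FA. Each had the smallest p that 5 against 5 libraries allow in a two-sided exact permutation test (0.0079, Benjamini-Hochberg 0.047 over 36 ratio comparisons). In G-NHA9-21FGAA, G-NHA9Midi-21FGAA and G-NHA9-ΔDNA the ratio differed by 0.12, -0.03 and 0.02 (Benjamini-Hochberg p = 0.25, 0.75 and 0.9 by the exact permutation test). These ratios were chosen after the values of the genes had been seen, so their p-values are descriptions.

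Cd74 (ENSMUSG00000024610.14), the gene of the invariant chain, lies on the plus strand at chr18:60803848-60812652 of mm10 and fell in 3 construct groups. It was lower in each of those 3 than in G-NHA9. In the empty vector libraries it stood at 693, 556, 585, 523 and 622 CPM and in the G-NHA9 libraries at 615, 634, 741, 542 and 609 CPM. No G-NHA9 library was below the lowest control. In G-NHA9-8FA it was 552, 489, 408, 305 and 368 CPM, in G-NHA9Midi 434, 233, 342, 396 and 381 CPM, and in G-NHA9-21FGAA 360, 505, 441, 348 and 295 CPM.

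The G-NHA9Midi and G-NHA9-21FGAA groups lay wholly below the controls and 4 of 5 G-NHA9-8FA libraries did. In G-NHA9Midi-21FGAA it was 577, 440, 650, 661 and 520 CPM, and in G-NHA9-ΔDNA 447, 462, 542, 546 and 407 CPM. Both of these groups overlapped the controls.

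Against the empty vector the log2 fold change of Cd74 was 0.08 in G-NHA9, with a 95% interval of -0.24 to 0.40 (adjusted p = 0.76 by edgeR). It was -0.74 ± 0.16 in G-NHA9Midi (adjusted p = 0.00032), -0.61 ± 0.16 in G-NHA9-21FGAA (0.0042) and -0.49 ± 0.16 in G-NHA9-8FA (0.02). The last call was lost without replicate 4 (adjusted p = 0.062) or replicate 5 (0.056) of G-NHA9-8FA. In G-NHA9-ΔDNA the log2 fold change was -0.31 (adjusted p = 0.18) and in G-NHA9Midi-21FGAA -0.06 (0.83).

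The log2 ratio of Cd74 to H2-Aa was 0.82 ± 0.10 in the empty vector group and 1.72 ± 0.22 in G-NHA9, and all 5 G-NHA9 libraries (1.52 to 2.10) exceeded all 5 controls (0.73 to 0.96). The difference of 0.90 had an exact permutation p of 0.0079, the smallest possible here (Benjamini-Hochberg 0.047). This ratio was also chosen after the values of the genes had been seen, so its p-values are descriptions. In the other 5 groups the ratio differed from the empty vector by 0.12 to 0.20, with Benjamini-Hochberg p of 0.096 or more.

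The H2-DM chains form the heterodimer that loads peptides, and each passed the test in 1 to 3 of the 6 construct groups. H2-DMa, the alpha chain, was 93.5 ± 11.4 CPM in the empty vector group and fell in G-NHA9-21FGAA (61.3 ± 16.3 CPM, log2 fold change -0.61, adjusted p = 0.0026 by edgeR) and G-NHA9Midi (69.1 ± 8.85 CPM, -0.44, adjusted p = 0.019). The second call was lost without replicate 2 of G-NHA9Midi (adjusted p = 0.069). In the other 4 groups its mean was 71.7 to 80.2 CPM and its adjusted p 0.072 or more.

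H2-DMb1, the main beta chain of H2-DM, was 89, 76.5, 84, 66.1 and 72.7 CPM in the empty vector libraries. It was 57.2, 57, 67.5, 48.9 and 34.3 CPM in G-NHA9, 57, 40.3, 47, 62.1 and 53.3 CPM in G-NHA9Midi, and 52.1, 67.7, 60, 42.2 and 37.5 CPM in G-NHA9-21FGAA. All but 1 library of G-NHA9 and 1 of G-NHA9-21FGAA were below the controls. The log2 fold changes were -0.55, -0.58 and -0.58, with an SE of 0.14 and adjusted p of 0.0025, 0.0011 and 0.0023. In G-NHA9-8FA it was -0.34 (adjusted p = 0.069).

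H2-DMb2, a second beta chain gene beside H2-DMb1, was the scarcest of the structural genes, at 16.5 ± 3.23 CPM in the empty vector group. It was called in G-NHA9-21FGAA alone, where the libraries stood at 12.5, 14.6, 13.3, 4.51 and 4.11 CPM. Replicates 4 and 5 were far below the other 3, and the log2 fold change of -0.76 (adjusted p = 0.027) was not called without either of them (0.099 and 0.11) or without replicate 1 or 2 of the empty vector (0.075 and 0.064). Of the 100-base windows of the longest H2-DMb1 transcript, 13.7% were identical in H2-DMb2. Reads from such windows may be left uncounted or given to the wrong gene, and this was not tested.

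Ciita varied most, with group means that spanned 3.09-fold against 1.5- to 1.81-fold for the other 7 genes. In the empty vector libraries it stood at 13.1, 10.8, 8.67, 11.7 and 14.4 CPM and in the G-NHA9 libraries at 6.87, 8.65, 10.4, 8.28 and 10.5 CPM. In G-NHA9-8FA it was 6.38, 6, 5.09, 3.75 and 7.58 CPM, and in G-NHA9Midi 5.64, 3.57, 4.83, 4.15 and 6.39 CPM. Both of the last groups lay wholly below the controls, whereas G-NHA9 overlapped them.

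Ciita was 7.72, 12.2, 11.7, 7.56 and 9.31 CPM in G-NHA9-21FGAA and 13.1, 10.8, 15, 23.1 and 13.9 CPM in G-NHA9Midi-21FGAA. In G-NHA9-ΔDNA it was 12.2, 12.1, 12.6, 18.4 and 10.6 CPM. These 3 groups all overlapped the controls.

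Against the empty vector Ciita fell in G-NHA9Midi (log2 fold change -1.25 ± 0.21, so that its level decreased by 57.9%, adjusted p = 9.3e-06 by edgeR) and in G-NHA9-8FA (-1.02 ± 0.20, adjusted p = 0.00027). In G-NHA9 it was -0.39 with a 95% interval of -0.80 to 0.02 (adjusted p = 0.15), in G-NHA9-21FGAA -0.27 (0.34), in G-NHA9-ΔDNA 0.17 (0.62) and in G-NHA9Midi-21FGAA 0.38 (0.20). In G-NHA9, G-NHA9-21FGAA and G-NHA9-ΔDNA some chains were called lower and Ciita was not, which by itself does not show that they differ. The interval of Ciita in G-NHA9 overlaps that of H2-Aa (-1.11 to -0.48). The log2 ratio of H2-Aa to Ciita was 0.65 below the control value in G-NHA9-ΔDNA (4.21 ± 0.21 against 4.86 ± 0.31) and 0.54 below it in G-NHA9Midi-21FGAA (4.33 ± 0.19), both with an exact permutation p of 0.0079 and a Benjamini-Hochberg p of 0.047. It was 0.55 below it in G-NHA9-21FGAA and 0.44 below it in G-NHA9 (Benjamini-Hochberg p = 0.082 and 0.22 by the exact permutation test). In G-NHA9-8FA and G-NHA9Midi it was 0.36 and 0.38 above the control value (0.28 and 0.22). The ratio of H2-Aa to Ciita was also chosen after the values had been seen, so its p-values are descriptions.

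Some exons of these genes overlap a gene on the opposite strand, and the strand setting of the counting is not given in the sources used here. H2-DMa shares 360 exon bases (10.4% of its exons) with Brd2, which was not called in any construct group against the empty vector. Ciita shares 329 bases (3.5%) with Dexi, which stood at 7.57 CPM in the empty vector group, fell in G-NHA9Midi (log2 fold change -0.37, adjusted p = 0.016) and was higher in G-NHA9Midi-21FGAA than in G-NHA9Midi (0.44, adjusted p = 0.004). The part of Dexi reads in the values of Ciita was not tested.

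Set against full-length G-NHA9, few of the 8 genes differed, and Cd74 and Ciita were those that did most often. In G-NHA9-8FA 2 of 8 were lower and 0 higher (background 8.04% lower, 6.43% higher): Cd74, whose log2 fold change was -0.57 (adjusted p = 0.014), and Ciita, at -0.64 (0.032), the latter lost without replicate 3 or 5 of G-NHA9 or replicate 3 or 4 of G-NHA9-8FA (0.059 to 0.095). In G-NHA9Midi 2 of 8 were lower (background 11.2%), Cd74 (-0.81 ± 0.16, adjusted p = 3e-04) and Ciita (-0.86 ± 0.20, 0.0026), and 1 was higher (background 8.5%), H2-Ab1 (0.54 ± 0.15, 0.0079). For H2-Aa the log2 difference from G-NHA9 was -0.06 in G-NHA9Midi (95% interval -0.37 to 0.26) and 0.12 in G-NHA9-8FA (-0.20 to 0.43).

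In G-NHA9-21FGAA 1 of 8 was lower than in G-NHA9, Cd74 (log2 fold change -0.69 ± 0.16, adjusted p = 0.0018), and 0 were higher (background 8.34% lower, 8.91% higher). In G-NHA9-ΔDNA 1 of 8 was higher, Ciita (0.56 ± 0.20, adjusted p = 0.044), and 0 were lower (background 10.7% higher, 11.4% lower). The Ciita call was lost in several settings, among them without replicate 1 of G-NHA9 (log2 fold change 0.47, adjusted p = 0.12). Cd74 stood at -0.39 in G-NHA9-ΔDNA against G-NHA9 (adjusted p = 0.079), and it was called lower with library totals (-0.43, adjusted p = 0.033) and with only the groups compared (-0.39, 0.034).

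The effect of changing 21 FG motifs differed between the truncated and full-length fusions for 3 of the 8 genes. In the paper's description, the full-length form keeps its N-terminal FG motifs after this change, whereas the truncated form has only the 21 that are changed. The truncation and the loss of all motifs therefore cannot be told apart in this contrast. In the truncated form, G-NHA9Midi-21FGAA against G-NHA9Midi, 5 of 8 were higher and 0 lower (background 21% higher, 22.2% lower), with a median log2 fold change of 0.49 for the 8 genes and -0.02 for all genes. Ciita rose 3.08-fold (log2 1.62 ± 0.21, adjusted p = 9.4e-08 by edgeR), H2-Aa rose by 0.68 (0.00055), Cd74 by 0.67 (0.00079), H2-Eb1 by 0.60 (0.0044) and H2-DMb1 by 0.38 (0.025) on the log2 scale. In each of these 5 genes all 5 G-NHA9Midi-21FGAA libraries were above all 5 G-NHA9Midi libraries. The H2-DMb1 call was lost without replicate 2 or 3 of G-NHA9Midi (adjusted p = 0.091 and 0.063) or replicate 3 of G-NHA9Midi-21FGAA (0.054), and H2-Ab1 stood at -0.25 (0.17).

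In the full-length form, where other FG motifs remain, the change left H2-Aa at a log2 fold change of 0 (95% interval -0.32 to 0.31), Ciita at 0.12 (-0.29 to 0.52) and Cd74 at -0.69. The test of the difference between these effects, full-length minus truncated, called 3 of 8 genes, all with a negative difference (background 7.43% negative, 5.2% positive). The differences were -1.36 ± 0.22 for Cd74 (adjusted p = 6.4e-05), -1.51 ± 0.29 for Ciita (4e-04) and -0.68 ± 0.22 for H2-Aa (0.033). The H2-Aa difference was not called without any 1 of 7 of the 20 libraries (adjusted p = 0.057 to 0.081). It was also lost without the filter on low counts (0.052), without the 3 libraries labelled over 8 weeks (0.051) and with only the groups compared (0.08). H2-Eb1 (-0.62, adjusted p = 0.087) and H2-DMa (-0.52, 0.1) did not pass, and for H2-Ab1 the difference was 0.07 (-0.35 to 0.49).

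**Figure D3:**
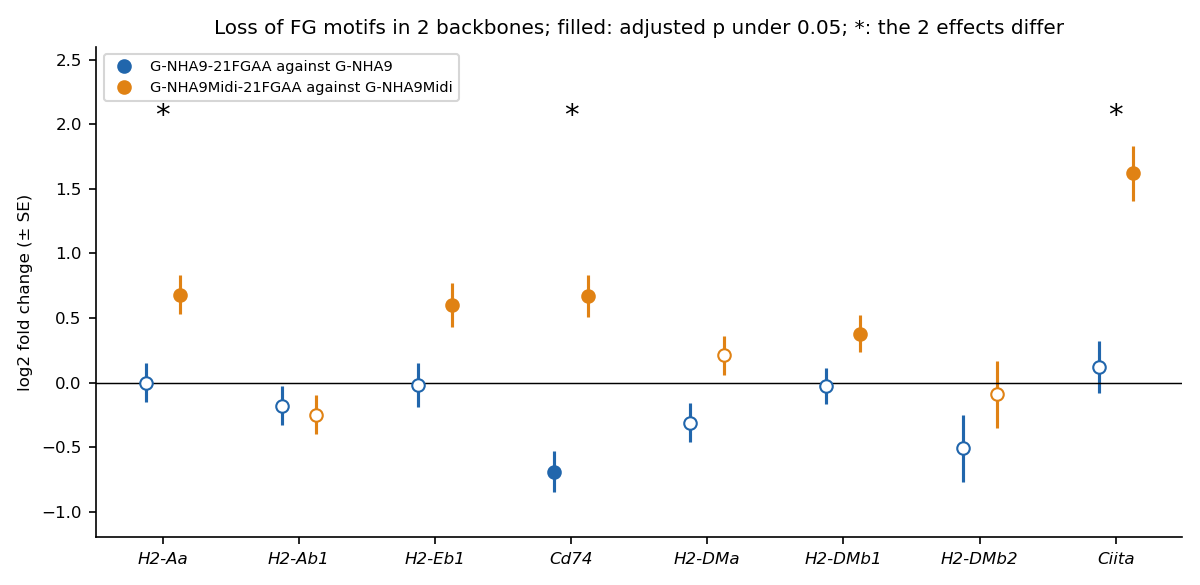
Log2 fold change of each gene when 21 FG motifs are changed in the full-length fusion (blue) and in the truncated fusion (orange), with the standard error as bars; filled points have an adjusted p under 0.05 and an asterisk marks a called difference between the 2 effects. Ciita stands at 0.12 in the full-length and at 1.62 in the truncated fusion, and Cd74 at -0.69 and 0.67.

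Libraries that were high in 1 of these genes within their group tended to be high in the others. The correlation of log2 CPM within groups, after group means were removed, was 0.47 to 0.94 (median 0.79) over the 21 pairs of genes without Ciita in the 35 libraries. For Ciita with each of the other 7 it was 0.16 to 0.65 (median 0.42). The points share their libraries and scaling factors, and the values are a description.

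Of the other class II chains, H2-Ob moved the opposite way to most of the 8 genes in G-NHA9, G-NHA9-8FA and G-NHA9Midi. H2-Ob, which pairs with H2-Oa into H2-DO, an inhibitor of H2-DM, stood at 11.5, 9.96, 15.7, 14.3 and 11.4 CPM in the empty vector libraries and at 68, 75.5, 72.5, 75.9 and 41.1 CPM in the G-NHA9 libraries. It was 40.8, 56.8, 51.1, 50.2 and 48.4 CPM in G-NHA9-8FA and 101, 118, 111, 113 and 117 CPM in G-NHA9Midi. All 15 of these libraries were above all controls.

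H2-Ob was 14.9, 18.4, 17, 11.6 and 10.9 CPM in G-NHA9-21FGAA, 7.39, 10.8, 10.1, 5.33 and 9.15 CPM in G-NHA9Midi-21FGAA and 6.92, 6.51, 6.49, 8.89 and 13.3 CPM in G-NHA9-ΔDNA. The 3 groups with changed FG pairs or a changed homeodomain stayed in or near the control range. Against the empty vector H2-Ob rose 8.89-fold in G-NHA9Midi (log2 3.15 ± 0.21, adjusted p = 1.3e-13 by edgeR), 5.30-fold in G-NHA9 (2.41 ± 0.20, 3.9e-11) and 3.94-fold in G-NHA9-8FA (1.98 ± 0.20, 4.2e-09). In G-NHA9-21FGAA its log2 fold change was 0.21 (adjusted p = 0.45). Calls of -0.55 in G-NHA9Midi-21FGAA (adjusted p = 0.047) and -0.58 in G-NHA9-ΔDNA (0.038) were lost without replicate 3 of the empty vector (0.14 and 0.12) and in other settings.

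H2-Ob was higher in G-NHA9Midi than in G-NHA9 (log2 0.75 ± 0.19, adjusted p = 0.0045). It fell by 3.70 on the log2 scale when the FG motifs of the truncated form were changed (adjusted p = 4.4e-15) and fell by 2.19 when those of the full-length form were (4.1e-10), and the difference between these falls was 1.51 ± 0.27 (0.00019). H2-Oa, the alpha chain of H2-DO, was 11.6 CPM in the empty vector group and rose in G-NHA9Midi (18.4 CPM, log2 0.66, adjusted p = 0.00051) and in G-NHA9 (16.6 CPM, 0.51, 0.0077, and 0.083 without the 3 libraries labelled over 8 weeks). Of the 3 other chains tested, 2 were thus higher in G-NHA9 (background 16.9%), 1 in G-NHA9-8FA (13.4%) and 2 in G-NHA9Midi (20.5%), with 0 lower. H2-Ob made 1 of 3 lower in G-NHA9Midi-21FGAA (background 7.32%) and in G-NHA9-ΔDNA (7.35%), with 0 higher. In G-NHA9-21FGAA 0 were called (background 14.7% higher, 12.5% lower). The remaining chain, H2-Eb2, stood below 1 CPM and was not called.

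**Figure D4:**
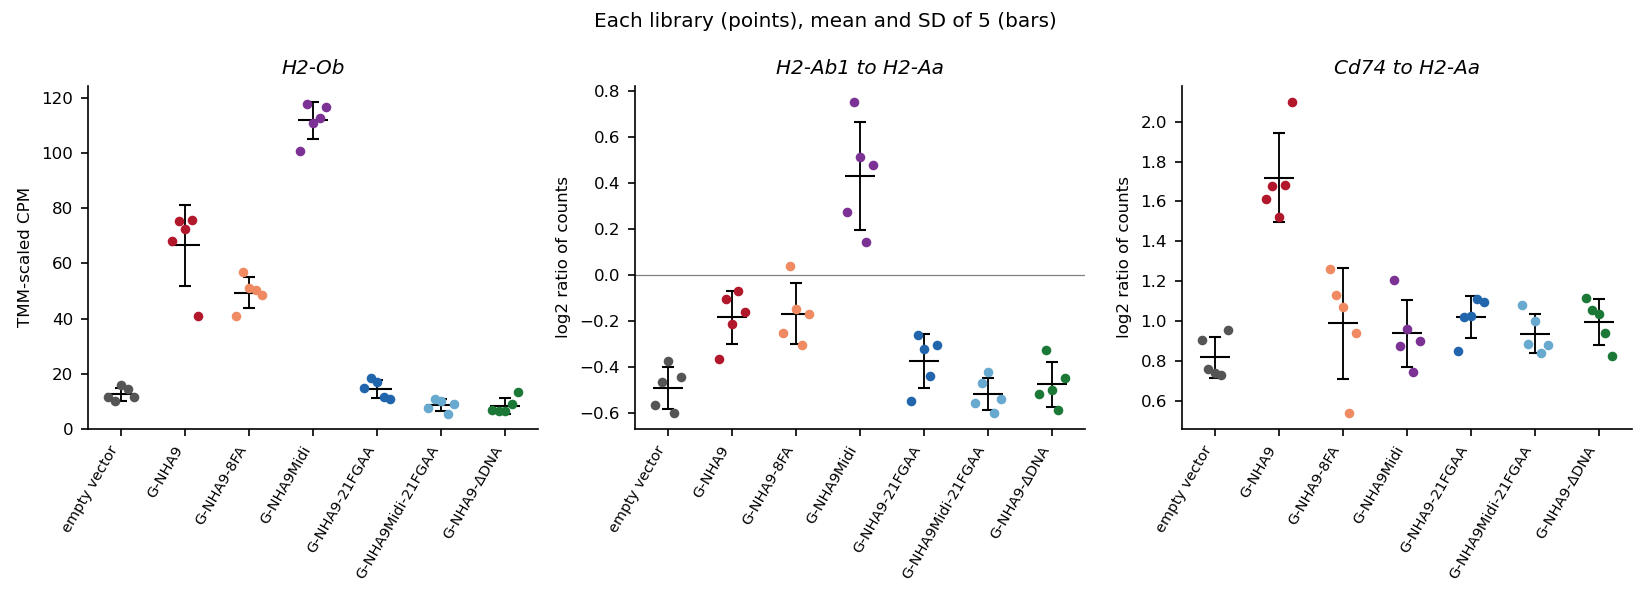
H2-Ob in TMM-scaled CPM (left), the log2 ratio of H2-Ab1 to H2-Aa counts (middle) and the log2 ratio of Cd74 to H2-Aa counts (right) in each library (points), with the mean and SD of 5 libraries (bars). H2-Ob and the H2-Ab1 to H2-Aa ratio are both highest in G-NHA9Midi, at means of 112 CPM and 0.43, and the Cd74 to H2-Aa ratio is highest in G-NHA9, at a mean of 1.72.

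Within the class II interval of chromosome 17, from H2-Oa to H2-Eb2, genes that rose lay beside genes that fell. In mm10, H2-Ob ends 3274 bases before H2-Ab1 starts, on the same strand, and H2-Ab1 shares no 100-base window with H2-Ob. The part of transcripts that run on from H2-Ob in the counts of H2-Ab1 was not tested. Of the 14 genes tested there, in an interval chosen after its values had been seen, 6 are among the 8 genes described here. Against the empty vector, 5 of the 14 were higher and 4 lower in G-NHA9 (background 16.9% higher, 15.2% lower). The counts were 4 and 2 in G-NHA9-8FA (13.4%, 13.2%) and 6 and 4 in G-NHA9Midi (20.5%, 20%). All lower genes in these 3 groups were among the 8, so that their calls repeat those above. In G-NHA9-21FGAA 0 were higher and 8 lower (14.7%, 12.5%), with Psmb9 and Tap1 the lower genes outside the 8. The counts were 0 and 2 in G-NHA9Midi-21FGAA (9.59%, 7.32%) and 0 and 4 in G-NHA9-ΔDNA (9.85%, 7.35%).

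The higher genes included those of class I peptide supply that lie between the H2-DM and H2-Ob genes. Tap2, a subunit of the peptide transporter, rose by 0.69 in G-NHA9 (adjusted p = 1e-05), 0.44 in G-NHA9-8FA (0.0025) and 1.02 in G-NHA9Midi (5.9e-09) on the log2 scale. Psmb8, a subunit of the immunoproteasome, rose by 0.47, 0.39 and 0.69 in the same groups (1.6e-05, 0.00025 and 1.2e-08). Brd2, a chromatin reader that lies between H2-Oa and H2-DMa, was not called in any of the 6 groups.

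**Figure D5:**
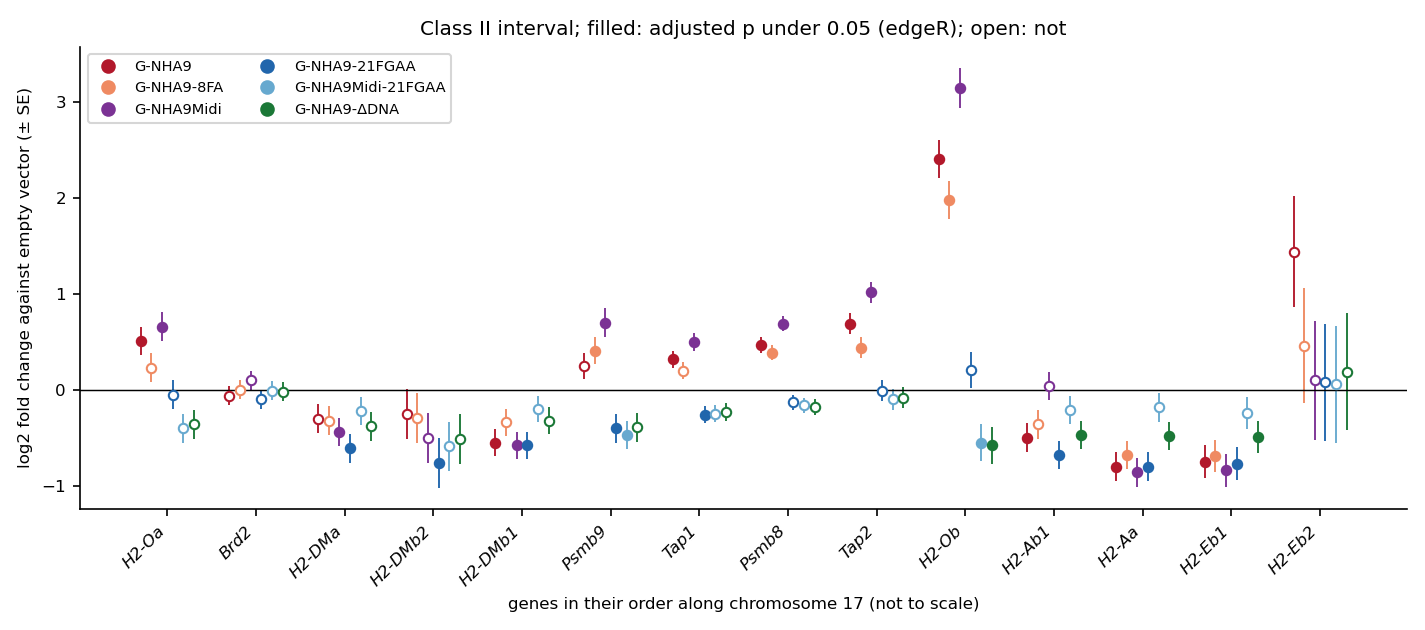
Log2 fold change against the empty vector of the 14 tested genes of the class II interval, in their order along chromosome 17 (x axis, not to scale), with the standard error as bars; filled points have an adjusted p under 0.05. H2-Ob reaches 3.15 in G-NHA9Midi between Tap2 at 1.02 and H2-Ab1 at 0.04, while H2-Aa and H2-Eb1 on its other side stand at -0.86 and -0.84.

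Enzymes that prepare peptides and degrade the invariant chain were called lower in numbers that differed between the construct groups. Of 10 genes of peptide loading and turnover, 0 were higher in any construct group than in the empty vector. The number lower was 6 in G-NHA9 (background 15.2% of all tested genes), 5 in G-NHA9-8FA (13.2%), 10 in G-NHA9Midi (20%), 8 in G-NHA9-21FGAA (12.5%), 2 in G-NHA9Midi-21FGAA (7.32%) and 4 in G-NHA9-ΔDNA (7.35%). Their median log2 fold changes were -0.60, -0.46, -1, -0.74, -0.35 and -0.56 in that order. Ctss, cathepsin S, which makes the last cut in the invariant chain, fell from 4670 to 1730 CPM in G-NHA9 (log2 -1.43, adjusted p = 2.4e-06). Lgmn, the asparaginyl endopeptidase of endosomes, fell from 376 to 124 CPM in G-NHA9Midi (-1.60, 1.6e-08), Ctsb, cathepsin B, by 1.14 (4.7e-06) and Ifi30, the thiol reductase of endosomes, by 1.04 (4.8e-08) on the log2 scale.

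Of 12 transcription factors of class II genes, 1 was higher and 2 lower in G-NHA9, 1 and 0 in G-NHA9-8FA, 3 and 1 in G-NHA9Midi, 0 and 5 in G-NHA9-21FGAA, 1 and 4 in G-NHA9Midi-21FGAA, and 0 and 1 in G-NHA9-ΔDNA. Over all tested genes, 16.9% were higher and 15.2% lower in G-NHA9, 13.4% and 13.2% in G-NHA9-8FA, and 20.5% and 20% in G-NHA9Midi. The shares were 14.7% and 12.5% in G-NHA9-21FGAA, 9.59% and 7.32% in G-NHA9Midi-21FGAA, and 9.85% and 7.35% in G-NHA9-ΔDNA. Counts in this list and in the lists and markers that follow, several of them near these shares, are descriptions. Rfx5, a DNA-binding subunit of the complex that recruits Ciita, rose in G-NHA9 (log2 0.43, adjusted p = 0.00066), and Spi1, the myeloid factor PU.1, fell there (-0.38, 0.00015). In G-NHA9Midi Irf1, a factor induced by interferon gamma, rose (0.51, 0.0052) and Irf4, a factor of dendritic cells and B cells, fell (-0.53, 8e-04).

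Of 7 genes of interferon gamma signalling tested, 0 were higher and 2 lower in G-NHA9, 0 and 0 in G-NHA9-8FA, 2 and 2 in G-NHA9Midi, 1 and 4 in G-NHA9-21FGAA, 0 and 2 in G-NHA9Midi-21FGAA and 0 and 2 in G-NHA9-ΔDNA, and Ifng itself was too low to be tested. Jak1, a kinase of its receptor, fell in G-NHA9 (log2 -0.32, adjusted p = 0.0014), as did the receptor chain Ifngr2 (-0.36, 0.0068), and Jak2 rose in G-NHA9Midi (0.33, 0.028).

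Of 6 costimulatory and checkpoint genes, 2 were higher and 1 lower in G-NHA9, 2 and 0 in G-NHA9-8FA, 4 and 2 in G-NHA9Midi, 1 and 3 in G-NHA9-21FGAA, 0 and 2 in G-NHA9Midi-21FGAA, and 0 and 2 in G-NHA9-ΔDNA. Cd40, the receptor by which T cells activate antigen-presenting cells, rose from 0.366 to 5.32 CPM in G-NHA9 (log2 3.82, adjusted p = 3.6e-11). In G-NHA9Midi Pdcd1lg2, the checkpoint ligand PD-L2, rose (0.93, 2e-07), while Cd274, the ligand PD-L1, and Cd86, a ligand of CD28, fell (-0.90 and -0.84, adjusted p = 0.00018 and 0.0045).

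Of 12 genes of the class I pathway, 3 were higher and 1 lower in G-NHA9, 3 and 0 in G-NHA9-8FA, 5 and 1 in G-NHA9Midi, 1 and 7 in G-NHA9-21FGAA, 1 and 4 in G-NHA9Midi-21FGAA and 1 and 5 in G-NHA9-ΔDNA. H2-D1, a classical class I heavy chain, fell in G-NHA9 from 2120 to 1310 CPM (log2 -0.70, adjusted p = 0.00097) and stood at -0.14 in G-NHA9Midi (0.5). Psmb9, another immunoproteasome subunit, rose by 0.70 in G-NHA9Midi (0.00023). The H2-Aa and H2-Ab1 levels and those of the class I genes were measured in the same libraries and share their scaling.

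Markers of cells that express class II genes also moved between groups. For the counts of markers called, here and in the paragraphs on other lineages, the shares over all tested genes are those given with the transcription factors. The summed level of 15 macrophage markers was 28700 to 39500 CPM in the empty vector libraries, with a mean of 32700 CPM. Lyz2, lysozyme, averaged 29100 CPM there and so made up most of that sum. The sum was 5980 to 15400 CPM in G-NHA9, 10900 to 23400 CPM in G-NHA9-8FA and 7430 to 16400 CPM in G-NHA9Midi. It was 11700 to 18800 CPM in G-NHA9-21FGAA, 19300 to 24700 CPM in G-NHA9Midi-21FGAA and 15900 to 21200 CPM in G-NHA9-ΔDNA. These sums do not show how most of the markers moved. Of the 14 tested, 6 were higher and 4 lower in G-NHA9 than in the empty vector, 3 and 3 in G-NHA9-8FA, 3 and 7 in G-NHA9Midi, 1 and 5 in G-NHA9-21FGAA, 1 and 0 in G-NHA9Midi-21FGAA and 1 and 3 in G-NHA9-ΔDNA. Their median log2 fold changes were 0.40, 0.17, -0.41, -0.34, -0.04 and -0.25 in that order. Adgre1, the macrophage antigen F4/80, was 666 ± 66.2 CPM in the empty vector group and 636 ± 102 CPM in G-NHA9 but 440 ± 91.9 CPM in G-NHA9Midi. C1qa, a complement gene of macrophages, stood at 0.467 CPM or less in every group mean.

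The summed level of 14 dendritic cell markers was 607 to 821 CPM in the empty vector libraries, 468 to 1160 CPM in G-NHA9, 596 to 850 CPM in G-NHA9-8FA, 241 to 575 CPM in G-NHA9Midi, 300 to 557 CPM in G-NHA9-21FGAA, 420 to 509 CPM in G-NHA9Midi-21FGAA and 452 to 739 CPM in G-NHA9-ΔDNA. Of the 13 tested, 6 were higher and 3 lower in G-NHA9, 2 and 5 in G-NHA9-8FA, 2 and 6 in G-NHA9Midi, 1 and 2 in G-NHA9-21FGAA, 1 and 2 in G-NHA9Midi-21FGAA and 1 and 1 in G-NHA9-ΔDNA. Among those higher in G-NHA9 were Flt3, a cytokine receptor that is also on the list of progenitor markers, from 0.187 to 9.14 CPM (log2 5.61, adjusted p = 8.9e-15 by edgeR), the chemokine gene Ccl22, from 5.38 to 16.5 CPM (1.62, 1.5e-05), and the lectin gene Mgl2, from 180 to 392 CPM (1.13, 0.011). Of the 3 that were lower there, Clec9a, a receptor of cross-presenting dendritic cells, went from 3.81 to 0.873 CPM (-2.12, 2.5e-08). Itgax, the integrin CD11c, fell from 442 ± 23.3 CPM to 280 ± 52.4 CPM in G-NHA9 (log2 -0.66, adjusted p = 0.007) and 187 ± 49.3 CPM in G-NHA9Midi (-1.24, 3e-06). In G-NHA9Midi-21FGAA it was 347 ± 30.5 CPM (-0.35, 0.21). Xcr1 and Siglech, which mark conventional and plasmacytoid subsets, stood at 0.206 CPM or less in every group mean. The part of these cell types in the class II values was not tested.

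Markers of other lineages also shifted. Of 10 erythroid markers, 10 were lower in G-NHA9-8FA and 9 in G-NHA9Midi than in the empty vector, and their sum was 28.4 to 79.5 CPM and 44.5 to 84.1 CPM there against 239 to 698 CPM in the controls. In G-NHA9 it was 188 to 501 CPM, with 0 called, and in G-NHA9-21FGAA, G-NHA9Midi-21FGAA and G-NHA9-ΔDNA it was 370 to 1790 CPM, 492 to 1570 CPM and 447 to 1650 CPM. In these last 3 groups 6, 8 and 3 of 10 were higher and 0 lower. The summed mast cell and basophil markers were 1330 to 3670 CPM in the controls and 516 to 1000 CPM over G-NHA9, G-NHA9-8FA and G-NHA9Midi, where 7, 8 and 8 of 10 were lower and 0 higher. They were 3480 to 4790 CPM in G-NHA9-21FGAA and 2680 to 6480 CPM in G-NHA9Midi-21FGAA, with 4 of 10 higher and 0 lower than in the empty vector in each, and 2670 to 3980 CPM in G-NHA9-ΔDNA, with 0 called.

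The eosinophil markers summed to 1200 to 1670 CPM in the controls, 270 to 952 CPM in G-NHA9, 50.7 to 256 CPM in G-NHA9-8FA and 35 to 110 CPM in G-NHA9Midi, with 3, 6 and 6 of 7 called lower and 0, 0 and 1 called higher in these groups. Their sum was 1430 to 2190 CPM in G-NHA9-21FGAA, 616 to 2030 CPM in G-NHA9Midi-21FGAA and 1380 to 2310 CPM in G-NHA9-ΔDNA, where none was lower and 1, 1 and 2 were higher. The neutrophil markers summed to 8770 to 13000 CPM in the controls and 15400 to 34500 CPM in G-NHA9-8FA, where 8 of 12 were higher and 0 lower. Over the other 5 groups the sum was 9390 to 15500 CPM in G-NHA9, 10400 to 22400 CPM in G-NHA9Midi, 7770 to 13700 CPM in G-NHA9-21FGAA, 5590 to 12700 CPM in G-NHA9Midi-21FGAA and 11800 to 21000 CPM in G-NHA9-ΔDNA. In that order 3, 5, 4, 0 and 6 of 12 were higher and 0, 3, 2, 2 and 2 lower.

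The summed progenitor markers, the labelled cell type before culture, were 391 to 520 CPM in the empty vector libraries, 819 to 972 CPM in G-NHA9, 756 to 1080 CPM in G-NHA9-21FGAA and 468 to 1040 CPM in G-NHA9Midi-21FGAA, with 7, 8 and 5 of 13 higher and 1, 0 and 0 lower in these construct groups. They were 477 to 584 CPM in G-NHA9-8FA, 479 to 570 CPM in G-NHA9Midi and 506 to 742 CPM in G-NHA9-ΔDNA, with 4, 5 and 5 higher and 3, 4 and 1 lower. The part of these lineages in the class II values was not tested.

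B and T cell markers were low. Cd3e, of the T cell receptor complex, was 0 to 0.0544 CPM in the group means. The summed B cell markers were 24.7 to 40.1 CPM over the group means and the summed T cell markers 3.74 to 6.4 CPM. Ighm, the IgM heavy chain, stood at 11.6 to 34.3 CPM in the group means.

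Among the 10300 genes that averaged at least 5 CPM, those whose log2 CPM followed the summed level of the 8 genes most closely over the 35 libraries were Atp6v0d1 (Pearson r = 0.84), Tmem206 (0.83), Hectd3 (0.83), Tfeb (0.82), Rcbtb2 (0.81), Dnase1l1 (0.81), Itgax (0.81), Amz1 (0.81), Cryl1 (0.81) and Nr2f6 (0.80). Atp6v0d1 is a subunit of the vacuolar proton pump and Tfeb a factor that activates lysosomal genes. Within groups, after group means were removed, these correlations were 0.64 to 0.82. They are descriptions over libraries that share groups and scaling.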

How the data were processed

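Total RNA from 35 cultures was sequenced as stranded total RNA libraries, and the authors aligned reads with STAR 2.7.0d and counted them per gene with HTSeq 0.11.2. The deposited table holds raw gene counts on mm10, per the submitters' processing notes. The annotation release and the strand setting are not given in the sources used here. The counts were made by the authors before deposit and carry no normalization. The labels give 100 cycles paired and 5 replicates a group, whereas the study's methods describe longer reads and transduction in triplicate. Which libraries share a transduction is not given in the sources used here. Gene positions, exon lengths and overlaps were taken from GENCODE M21 for mm10, by Ensembl gene ID without its version.

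Counts were tested with edgeR 4.0.16 in R 4.3.3: TMM scaling, filterByExpr with the 7 groups, 1 quasi-likelihood fit over all 35 libraries, and Benjamini-Hochberg adjustment over the 17166 tested genes within each of 11 comparisons and the contrast of the FG effects. Tested genes held 99.96% of counts. CPM values are scaled by TMM, and the prior count behind log2 CPM in correlations was 2. Intervals are 95% intervals of the fit. These intervals include the spread between libraries, whereas floors of 3 counts cover counting error only. No pair of libraries within a group agreed within sampling noise (lowest chi-square per degree of freedom 23.2 over 70 pairs). As nothing says that replicates came from separate animals or transductions, p-values measure only the spread between these libraries. In simulated G-NHA9 against empty vector data on 16773 genes, 200 genes of at least 1 CPM were changed. The fit recovered 87% of genes changed 2-fold and 97% of those changed 4-fold, and called 9 unchanged genes. Smaller changes were not simulated. Ratios of 2 genes, chosen after the values had been seen, were compared with two-sided exact permutation tests, 36 in all. These did not pair libraries by replicate number. The Benjamini-Hochberg value of 0.047 depends on how many of them tied at the smallest p possible.

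The genes described and the other gene lists were chosen with earlier results of these data known. All 8 genes are named. In each other list of the pathway the genes named are those called in G-NHA9, G-NHA9-8FA or G-NHA9Midi against the empty vector with the largest absolute log2 fold change, at most 4 a list, and the 10 genes most like the sum of the 8 by Pearson correlation are named with no test. Tap2, Psmb8 and Brd2 in the class II interval, Dexi and the single markers were named after their values had been seen. Libraries with the same replicate number deviated together on average (mean correlation 0.232, against -0.057 between different numbers), and every pair was above 0.1 in 5 of 11 comparisons, 3 with the empty vector and 2 with G-NHA9 as reference. Alternatives were the relative log expression (RLE) factors, library totals without TMM, no filter, a mean of at least 1 CPM, a replicate block, omission of the 3 libraries labelled over 8 weeks, fits of only the groups compared, DESeq2 1.42.0 and omission of each library in turn. Ratio and list alternatives were added after seeing the data. Figures were drawn with matplotlib 3.10.9 in Python 3.11.15.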

Additional observations from a re-analysis of the deposited data

Results flagged for a closer look

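The effect of changing 21 FG motifs differed between the full-length and the truncated fusion in a test of the difference itself (edgeR, full-length minus truncated, log2 scale). The full-length form keeps other FG motifs after the change and the truncated form does not. For Cd74 the difference was -1.36 ± 0.22 (adjusted p = 6.4e-05): it was lower in 5 of 5 G-NHA9-21FGAA libraries than in any G-NHA9 library and higher in 5 of 5 G-NHA9Midi-21FGAA libraries than in any G-NHA9Midi library. For Ciita it was -1.51 ± 0.29 (4e-04) and for H2-Aa -0.68 ± 0.22 (0.033), the latter lost without any 1 of 7 libraries and in other settings. For H2-Ob it was 1.51 ± 0.27 (0.00019), between effects of -2.19 in the full-length and -3.70 in the truncated fusion. Of all genes tested, 7.43% had a called negative and 5.2% a called positive difference.

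Ciita stood at 18.4 CPM in replicate 4 of G-NHA9-ΔDNA, apart from the next library at 12.6 CPM. It was the 1 of 63 groups of 5 values, over the 8 genes and their sum, in which a library lay that far from the rest, and chance gives about 1 in 20.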

How the results depend on the processing

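Of 96 values per setting, 94 kept their direction and side of the threshold with RLE factors, 83 with library totals, 87 with no filter, 94 with a mean of at least 1 CPM, 93 with a replicate block, 87 without the 3 libraries labelled over 8 weeks, 86 with only the groups compared and 93 with DESeq2. Of 1040 values with 1 library left out, 948 did, and no call changed sign in these. Library totals moved the median of all genes by up to 0.18 on the log2 scale against the empty vector. Causes were not tested, other than fewer libraries where some were left out. Against the empty vector, the number called in G-NHA9-ΔDNA was 0 with library totals, 0 with no filter, 1 without the older libraries, 6 with only the groups compared and 0 to 3 with 1 library left out, against 3. Against G-NHA9, it was 1 with library totals, where Ciita was lost (adjusted p = 0.073 by edgeR) and Cd74 called lower (-0.43, 0.033), 0 with no filter, 0 without the older libraries, 2 with only the groups compared and 0 to 2 with 1 library left out, against 1, and in G-NHA9-8FA 1 with no filter and 1 to 2 with 1 library left out, against 2. The contrast of the FG effects called 2 to 5 genes with 1 library left out, against 3. It called 4 with library totals, and 2 with no filter, 2 without the older libraries and 2 with only the groups compared. In G-NHA9-8FA against the empty vector 4 genes were called, and H2-Ab1 was added with DESeq2 (adjusted p = 0.049, 5 called), at 1 CPM (0.049, 5 called) and with only the groups compared (0.016). H2-DMb1 was added with only the groups compared (0.014, 6 called) and without the older libraries (0.042, 5 called), and 3 to 6 were called with 1 library left out. The replicate block added both there (0.037 and 0.046 by edgeR, 6 called), changed no other count of calls, and was not supported there by the pairing check.

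Signs changed where no gene was called. In G-NHA9-21FGAA against G-NHA9, H2-Aa (0) was 0.02 with RLE factors, 0.01 with library totals, 0.04 with no filter, 0.01 at 1 CPM, 0 with the replicate block, 0.03 without the older libraries, 0.01 with only the groups compared and 0.02 with DESeq2. H2-Eb1 (-0.02) was 0 with RLE factors, 0.02 with no filter, 0.01 without the older libraries and 0 with DESeq2, and H2-DMb1 (-0.03) was 0.01 with no filter and 0.02 without the older libraries. With library totals, Cd74 was 0.07 in G-NHA9Midi-21FGAA against the empty vector, H2-Aa -0.01 and H2-Eb1 -0.06 in G-NHA9-8FA against G-NHA9, and H2-Ab1 -0.01 in G-NHA9-ΔDNA against G-NHA9. Without the older libraries H2-Ab1 was -0.04 in G-NHA9Midi against the empty vector.

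With 1 library left out, log2 fold changes ranged as follows. In G-NHA9Midi against the empty vector H2-Ab1 ran from -0.02 to 0.09, and in G-NHA9Midi-21FGAA Cd74 from -0.12 to 0.02. Against G-NHA9, in G-NHA9-8FA H2-Eb1 ran from -0.04 to 0.20, H2-DMa from -0.10 to 0.09 and H2-DMb2 from -0.15 to 0.06, and in G-NHA9Midi H2-Aa from -0.15 to 0.06, H2-Eb1 from -0.19 to 0.05 and H2-DMb1 from -0.15 to 0.07. In G-NHA9-21FGAA H2-Aa ran from -0.11 to 0.14, H2-Eb1 from -0.16 to 0.15 and H2-DMb1 from -0.14 to 0.09, and in G-NHA9-ΔDNA H2-Ab1 from -0.05 to 0.15 and H2-DMa from -0.14 to 0.04. In G-NHA9Midi-21FGAA against G-NHA9Midi H2-DMb2 ran from -0.19 to 0.06, and the H2-Ab1 contrast of FG effects from -0.08 to 0.18. The 3 shifts of the H2-Ab1 to H2-Aa ratio ran from 0.28 to 0.35 in G-NHA9, 0.27 to 0.35 in G-NHA9-8FA and 0.84 to 0.99 in G-NHA9Midi.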
